A study of Mus musculus with 12 samples.

Results

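Chromosome 6 copy number was measured in cultured tumour cells with 2374 probes, those of 40726 autosomal probes on the arrays that lie on this chromosome and whose gene name does not begin with Klra or V1r. The rule uses position and name only and left out 20 chromosome 6 probes. The members run from base 3274714 to 149503634 of the mm9 build, with a median spacing of 26.0 kb, and 2293 of them were measured in all 11 tumours. The cells came from malignant peripheral nerve sheath tumours (MPNST), cancers of the Schwann cell lineage, in P0-GGFβ3 mice. In these mice the promoter of myelin protein zero directs a transgene for GGFβ3, a neuregulin-1 isoform, to Schwann cells. The C57BL/6J background gave 4 tumours, B86, B91, B96 and B76, at passages 6, 9, 8 and 13 in the titles. Mice of mixed background (C57BL/6J x SJL/J) gave 7 tumours: A18 at passage 11, 231 Trig with no passage given, A202 at passage 6, A390 at 7, A292 at 8, A382 at 8 and 9, and A394 at 5. The growth notes limit cultures to 5 to 8 passages, so several titles exceed them. Ages are not given. Every array carried tumour DNA in Cy5 against DNA of wild-type C57BL/6J Schwann cells in Cy3, with no dye swap. The tumour cultures had been started with forskolin and NRG1β and then kept without them, and the Schwann cells were kept in both throughout.

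Comparative genomic hybridisation reads the relative number of DNA copies at each probe from the ratio of both channels. Values are log2 of tumour over reference, centred on each array's autosomal median, so 0 is the level of the typical autosomal probe and not a count of copies. In a pure population, 3 copies against 2 would give 0.58, and a mixture of cells gives less. Mouse chromosome 6 carries Met, which encodes the receptor of hepatocyte growth factor, and Braf, which encodes a kinase of the MAPK cascade downstream of receptors such as those for neuregulins. It also carries Ezh2, the methyltransferase subunit of Polycomb repressive complex 2, and the cell cycle genes Ccnd2, Cdkn1b and Mad2l1. Because the reference is C57BL/6J, a lower copy number and a poorer match of SJL/J DNA to a probe cannot be told apart in the mixed tumours at a single probe.

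The probes below are 60-mers, printed as the files list them, with mm9 positions; the files do not give their strand. The first set is the lowest stretch of the chromosome in B91, from Cul1 to Pdia4, with 1 flanking probe at each end. It is shown because it holds both Ezh2 probes.
Cul1 chr6:47416316-47416375: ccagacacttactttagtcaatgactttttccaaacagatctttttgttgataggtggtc
Cul1 chr6:47458322-47458381: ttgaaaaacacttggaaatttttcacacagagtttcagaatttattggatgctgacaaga
Ezh2 chr6:47480252-47480311: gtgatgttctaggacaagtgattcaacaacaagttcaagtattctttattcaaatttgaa
Ezh2 chr6:47494559-47494618: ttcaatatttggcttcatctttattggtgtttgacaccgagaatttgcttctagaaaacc
AK089716 chr6:47547356-47547415: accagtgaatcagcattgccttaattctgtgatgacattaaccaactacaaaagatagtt
Pdia4 chr6:47746523-47746582: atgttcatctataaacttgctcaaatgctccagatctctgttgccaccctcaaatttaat
Pdia4 chr6:47761206-47761265: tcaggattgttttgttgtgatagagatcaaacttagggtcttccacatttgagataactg
The second set holds single probes whose values set a gene apart: the middle Met probe, the only Mad2l1 probe and the only Tas2r120 probe.
Met chr6:17476371-17476430: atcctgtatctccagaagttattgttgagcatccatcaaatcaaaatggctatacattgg
Mad2l1 chr6:66489958-66490017: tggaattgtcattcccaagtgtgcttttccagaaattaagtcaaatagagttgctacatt
Tas2r120 chr6:132606983-132607042: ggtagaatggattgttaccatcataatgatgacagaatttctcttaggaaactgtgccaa
Whether a probe lies in an exon or an intron was not analysed here.

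Chromosome 6 was above the typical autosomal level along nearly its whole length in 4 tumours, B91, B76 and B86 on C57BL/6J and A18 on the mixed background. B91 had a chromosome median of 0.67, with 98.4% of its probes above 0, and chromosome 6 was the highest of its 19 autosomes. B76 had 0.34, A18 had 0.26 and B86 had 0.24, with 93.0%, 86% and 82.3% of probes above 0. In B76, A18 and B86 chromosome 6 ranked 3, 4 and 4 among the autosomes, with chromosome 11 the highest in all 3. B96, the other C57BL/6J tumour, had a median of -0.01 and 48.1% of probes above 0.

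Among the other mixed tumours the medians were 0.10 in A390, 0.09 in A394, 0.04 in A382, 0.03 in A292, -0.01 in 231 Trig and -0.06 in A202. A202 was thus the lowest of the 11. B91 stood well above B76, A18 and B86, which lay close together. In each tumour the interquartile range of single probes was wide, for example 0.46 to 0.84 in B91 and -0.15 to 0.13 in B96, and the noise between neighbouring probes had an SD of 0.18 to 0.25. One array stands behind each tumour except A382, so a tumour's own level carries no test. The passages of A382 gave 0.04 at passage 8 and 0.03 at passage 9, and their probes differed by an SD of 0.08.

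**Figure D1:**
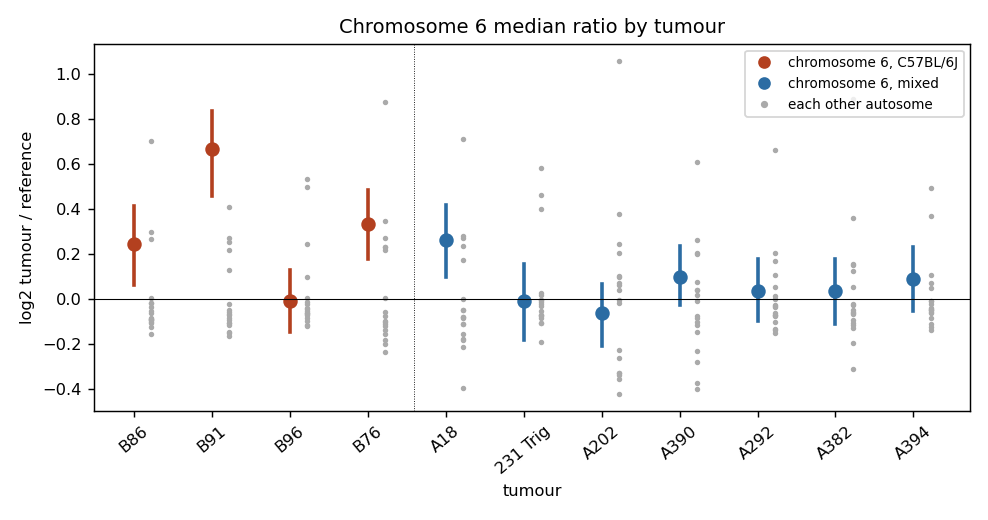
The median log2 ratio of chromosome 6 is plotted for each tumour as a coloured point, with a bar for the interquartile range of its probes, C57BL/6J left of the dotted line and mixed right of it. Grey points are the medians of the other 18 autosomes. B91 at 0.67, B76 at 0.34, A18 at 0.26 and B86 at 0.24 are the tumours above 0.2.

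The reference channel stayed at the level of its array on chromosome 6. Corrected for probe GC content, its chromosome 6 median was -0.0008 ± 0.0058 log2 relative to the array (SD, n = 12 arrays). The channel was not level across all autosomes: the means of the others ran from -0.53 to 0.16. The tumour channel at the same probes was 0.62 in B91, 0.29 in B76, 0.24 in A18 and 0.23 in B86, so the higher ratios were in the tumour channel. Between 99.7% and 100% of chromosome 6 probes were well above background on each array, none was saturated, and at most 1.77% were set to missing.

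By strain background, chromosome 6 medians averaged 0.31 ± 0.28 in the C57BL/6J tumours (SD, n = 4) and 0.06 ± 0.10 in the mixed tumours (SD, n = 7), a difference of 0.24. The groups overlapped at both ends: B96 at -0.01 was level with 231 Trig and above A202 only, and A18 at 0.26 was higher than B86 and B96. The 4 raised tumours comprised 3 of 4 on C57BL/6J and 1 of 7 on the mixed background. With a gain set at a mean of 0.3, or with each probe set against the other tumours (chosen after seeing the data), 2 tumours were raised. Each slide held both backgrounds, and the C57BL/6J mean was the higher on each: 0.24 against 0.06 on slide 1, 0.67 against 0.06 on slide 2 and 0.16 against 0.09 on slide 3. Those within-slide differences, 0.18, 0.61 and 0.07, rest on 1, 1 and 2 C57BL/6J tumours and on 3, 3 and 1 mixed tumours, with the mean of both A382 arrays counted on slide 2 although passage 9 was on slide 3. With slide as a block the difference was 0.30. Without B91 the difference between the backgrounds was 0.13, and without B96 it was 0.35. The raised tumours were at passages 6, 9, 11 and 13, and the others whose passage is given were at 5 to 9; the part of passage in the levels was not tested.

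In 5 Mb windows the strain difference ran along the whole chromosome, from 0.21 to 0.31 in all 30 windows. None passed limma, fitted over 484 autosomal windows with Benjamini-Hochberg adjustment: the adjusted p was 0.409 in each, and 27 of the 30 had an unadjusted p under 0.05. Of all windows 0% passed in either direction, while 51 of 484 had an unadjusted p under 0.05. For genes the median difference was 0.24 over 1135 chromosome 6 genes, against -0.003 over all 19969 genes tested. No chromosome 6 gene passed the strain test in limma (adjusted p under 0.05, difference of 0.2 or more in size). Of them 498 had an unadjusted p under 0.05, as had 2049 of all 19969 genes. Across all genes 0% passed as higher in C57BL/6J and 0.015% as lower. Genes of a chromosome share its level in each tumour. Relative to each tumour's chromosome median, an alternative chosen after seeing the data, 89 chromosome 6 genes and 1494 of all genes had an unadjusted limma p under 0.05.

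**Figure D2:**
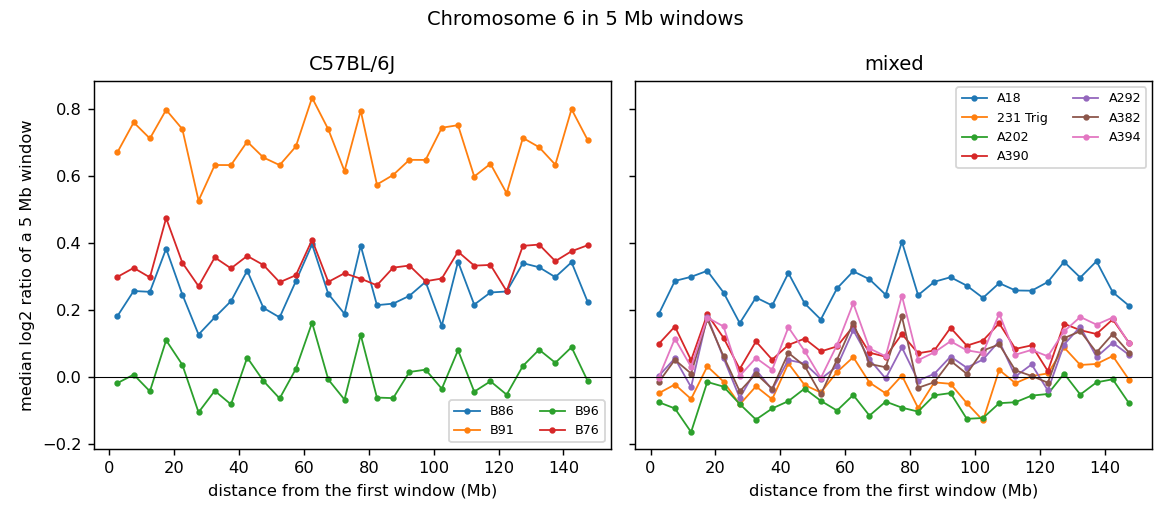
The median log2 ratio of each 5 Mb window is plotted along chromosome 6 by distance from the first window, 1 line per tumour, with C57BL/6J tumours on the left and mixed tumours on the right. B91 runs between 0.53 and 0.83 over its full length, B76 between 0.26 and 0.47, and A18 between 0.16 and 0.40, with no large step.

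The raised level was shared over almost the full chromosome. Profiles were split into segments by penalised least squares, and a segment counted as a gain at a mean of at least 0.2. Gains covered 100% of the members in B86, B76 and A18, and 99.8% in B91. The 4 tumours therefore shared 2369 of 2374 members, in a stretch of 44.1 Mb from the first probe to Cul1 and one of 102 Mb from Pdia4 to the last. Between them lay 0.288 Mb, 5 probes, where only 3 tumours had a gain and B91 did not. None of the other 7 tumours had a gain segment on chromosome 6.

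Breaks were few and mostly small. B86, A18, 231 Trig and A202 had none. These are the 4 arrays of slide 1, which per the file headers was read on another scanner and scan day than slides 2 and 3. All 7 tumours with a break were on slides 2 and 3. Missing spots made up 0.74% to 2.01% of the slide 1 arrays and 0.06% to 0.11% of the other 8. The noise SD was 0.204 to 0.246 in the slide 1 tumours and 0.180 to 0.203 in the others. The penalty per break grows with the square of this SD, so small steps were harder to call on slide 1. Slide, scanner, noise and the presence of a break cannot be told apart. B96, B76, A390, A292 and A394 broke at the same place, between 125499490 and 125542045, beside Vwf, which encodes von Willebrand factor. The step there was 0.06 to 0.17 upward toward the end of the chromosome. A382 had 1 break, inside Tspan9 at 127974373 to 128058364, with a step of 0.08, and A390 a second one inside Mfap5. B91 had 8 breaks, so 15 were found in 7 tumours. With the segmentation penalty raised to 80 noise variances no tumour had a break, and with 20 there were 39 breaks. When each probe was set against its median over the other tumours, an alternative chosen after seeing the data, the shared break at Vwf was gone and B91 and A390 were left as the only tumours with a break.

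The tumours also shared the fine shape of the chromosome. Over 30 windows, each tumour's profile correlated with the mean of the other 10 at r of 0.45 in A202 to 0.94 in B96, as a description of windows that share probes and reference. The lowest window of the mean profile, at 25 to 30 Mb, was 0.07, and the highest, at 15 to 20 Mb, was 0.26. In B91 stretches from 28373333 to 29712536 (49 probes) and from 124363152 to 125425781 (62 probes) were separate segments at 0.43 and 0.42. Against 30 probes on each side, the first was lower by 0.29 in B91 and by 0.11 to 0.23 in the other 10 tumours. The second, which includes Gapdh and ends at Cd9, was lower by 0.31 in B91 and by 0.11 to 0.26 in the others. Both dips were thus present in all 11 tumours, raised or not. With each probe set against the other tumours, B91 kept a separate segment of 6 probes inside the first, 28381569 to 28576123, Fscn3 to Snd1. Its mean was 0.26, against 0.63 and 0.57 in the segments on either side. In the plain ratio these probes were below their flanks by 0.41 in B91 and by 0.02 to 0.27 in the others. They were chosen from B91's own low values.

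In B91 alone the Cul1 to Pdia4 stretch lay far below its surroundings. Its 5 probes, from 47458322 to 47746582, had a median of -0.26, against 0.59 in the flanking 60 probes, a difference of -0.85. In the other 10 tumours the same difference was between -0.23 and -0.01. The stretch was bounded by B91's own low values, so this contrast was favoured in advance. The segment mean stepped down by 0.89 inside Cul1, which encodes a scaffold of ubiquitin ligases, and up by 0.87 inside Pdia4, which encodes a protein disulphide isomerase of the endoplasmic reticulum. The probes printed above had values in B91 of 0.76 for the first Cul1 probe, -0.48 for the second, -0.37 and -0.26 for the Ezh2 probes, -0.11 for AK089716, 0.02 for the first Pdia4 probe and 0.65 for the last.

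The first 4 of the 5 probes were each below 0 in B91, whose chromosome median was 0.67. The fifth, in Pdia4, was between -0.19 and 0.10 in the other tumours. B76, another raised tumour, had 0.28, 0.20, 0.41 and 0.38 at the first 4 probes, close to its own median of 0.34. A18 had 0.12, 0.11, 0.27 and -0.03, and B86 had 0.28, -0.09, 0.19 and -0.01. The tumours that were not raised all had stretch medians below 0, from -0.17 in B96 to -0.02 in A394, against -0.26 in B91. B96, A202 and A292 were below 0 at all 5 probes. The reference channel of the B91 array at the stretch was -0.21, against -0.47 to -0.22 on the other 11 arrays, and its tumour channel was -0.47, within the -0.63 to 0.03 of the other arrays, while the same channel stood at 0.62 over its chromosome 6. The stretch has a median GC content of 35.0%, against 36.7% over all members. One array of 1 tumour supports it, so it carries no test.

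Another stretch also set B91 apart, between Etv6 and Emp1 (133950283 to 135333030, 44 probes). Etv6 encodes an ETS family repressor and Emp1 a membrane protein of the epithelial membrane protein family. The stretch also carries Cdkn1b, the cell cycle inhibitor p27, Lrp6, a Wnt co-receptor, and Dusp16, a MAPK phosphatase. B91 had a stretch median of 0.36, against 0.84 in its flanks, a difference of -0.47. In the other 10 tumours the difference was between -0.15 and 0.04. Unlike the Cul1 to Pdia4 stretch it stayed above the reference, at a level near those of B76 (0.39) and A18 (0.33) over the same probes. Of its 24 genes, 21 were below the chromosome median in B91, which follows from bounding the stretch by B91's own low values. Above 0 were 22 of them, and of all 1135 chromosome 6 genes only 14 were below 0 in B91. With each probe set against the other tumours the segment ran from 133799859 to 136014208, Kap to Grin2b, with a mean of 0.33.

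**Figure D3:**
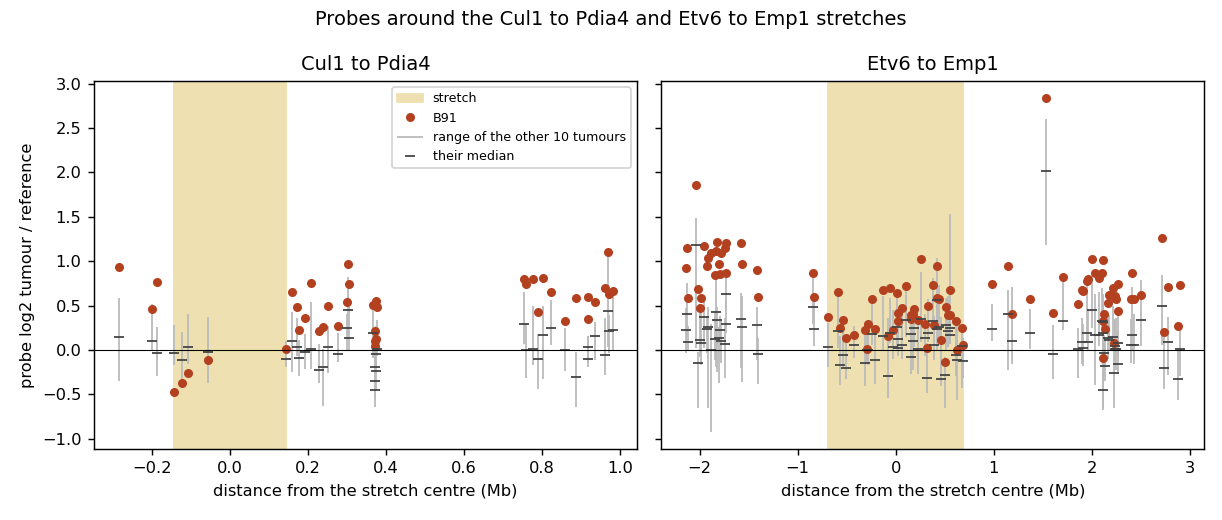
Log2 ratios of single probes are plotted around the Cul1 to Pdia4 stretch on the left and the Etv6 to Emp1 stretch on the right, by distance from the centre of each shaded stretch. Red points are B91, grey bars span the other 10 tumours and dashes are their medians. On the left 4 shaded B91 points lie below 0, between -0.48 and -0.11, and on the right the B91 points have a median of 0.36, against 0.84 in the flanks.

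With each probe set against the other tumours, A390 had a short segment of 5 probes from 70024240 to 70656779, at a mean of -0.43. The probes are named AF057536 and M23626 on the arrays. In the plain ratio this stretch was lower than its flanks by 0.49 in A390. The C57BL/6J tumours were above their flanks there, by 0.13 to 0.25. A202, A394 and 231 Trig, also mixed, were lower by 0.32, 0.29 and 0.28, and A18 by 0.11, while A292 and A382 were higher by 0.13 and 0.12. The value varied among the mixed tumours and did not belong to A390 alone.

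For genes, 1135 names on chromosome 6 were tested against the reference with limma over 19969 autosomal genes. A gene is said to have risen or fallen where its adjusted p was under 0.05 and its mean over 11 tumours was 0.2 or more in size. The spread of the reference DNA is not part of that test. On chromosome 6, 419 genes rose (36.9%) and 34 fell (3.00%), against 18% and 15.5% of all genes. The median mean ratio was 0.14 on chromosome 6 and -0.01 over all genes. Of 30 windows 7 rose and 0 fell, against 7.02% and 0.62% of all windows. Without B91 1 window rose. Measured against each tumour's own chromosome median, an alternative chosen after seeing the data, 122 chromosome 6 genes were above it (10.7%) and 160 below it (14.1%), close to the 9.94% and 13% of all genes.

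Of receptors and ligands, 8 of 19 rose and none fell, with a median of 0.18, where 36.9% of chromosome 6 genes and 18% of all genes rose and the median over chromosome 6 genes was 0.14. The count lies near the share of the chromosome. Tgfa, which encodes an EGF receptor ligand, rose by 0.41 ± 0.29 (SD, n = 11, limma adjusted p = 0.00032), Wnt2 by 0.35 ± 0.17 (p = 3.6e-05), Ntf3, the neurotrophin-3 gene, by 0.33 ± 0.26 (p = 0.0010) and Epha1, an ephrin receptor, by 0.29 ± 0.21 (p = 0.00062). Met, with probes from 17442331 to 17523648, had 0.53 in B86, 0.73 in B91, 0.21 in B96 and 0.48 in B76, against a lowest of -0.19, a median of 0.08 and a highest of 0.18 in the mixed tumours. On this mean of 3 probes the groups did not overlap: every C57BL/6J tumour, B96 included, was above every mixed tumour. The share of all genes without overlap is not reported here.

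Met had a mean of 0.20 ± 0.28 (SD, n = 11, limma adjusted p = 0.034), just under the size needed, and it passed under 10 of 23 alternatives. Its strain difference of 0.46 ± 0.10 (SE) had an adjusted p of 0.193. Its 3 probes disagreed. The middle probe, printed above, was 0.46 to 0.78 in the C57BL/6J tumours and -0.76 to 0.34 in the mixed tumours, with A382 the lowest. The last probe was 0.24 to 0.88 in C57BL/6J and 0.23 to 0.66 in mixed tumours. The first probe was -0.24 to 0.59 in C57BL/6J and -0.43 to -0.001 in mixed tumours. The groups thus overlapped at the first and last probes. After subtraction of each tumour's chromosome median the Met difference was 0.21, with an adjusted p of 0.381. The groups then overlapped, with A292 at 0.14 above B91 at 0.06.

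In Ras and MAPK signalling 1 of 8 measured genes rose, Pik3c2g, a class II phosphoinositide kinase, by 0.26 ± 0.23 (SD, n = 11, limma adjusted p = 0.0027), and none fell. The shares that rose were 36.9% on chromosome 6 and 18% over all genes. Braf had 0.23 in B86, 0.59 in B91, -0.08 in B96 and 0.32 in B76, against -0.10 to 0.18 with a median of -0.02 in the mixed tumours. B91 was highest, and the groups overlapped. The mean over 11 tumours was 0.11, and Braf did not pass.

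In the list of cell cycle, mitosis and DNA repair, 6 of 14 rose and none fell: Mad2l1, Mcm2, Foxm1, Rad52, Fancd2 and Ing4. This count, too, lies near the 36.9% of chromosome 6, against 18% of all genes. Mcm2, a subunit of the replicative helicase, rose by 0.44 ± 0.21 (SD, n = 11, limma adjusted p = 1.5e-05), and Foxm1, a mitotic transcription factor, by 0.37 ± 0.27 (p = 0.00049). Ccnd2, which encodes cyclin D2, had 0.02 in B86, 0.45 in B91, -0.30 in B96 and 0.18 in B76, against -0.25 to 0.11 with a median of -0.19 in the mixed tumours. Cdkn1b had 0.16, 0.34, -0.08 and 0.36, against -0.26 to 0.25 with a median of 0.00. B91 was thus not the highest tumour for Cdkn1b, which lies in its lower Etv6 to Emp1 stretch.

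Mad2l1, which encodes a spindle checkpoint protein, went the other way from the chromosome. Its 1 probe, at 66489958 to 66490017, had 0.47 in B86, 0.65 in B91, 0.15 in B96 and 0.45 in B76, against a lowest of 0.65 in A394, a median of 0.95 and a highest of 1.27 in A202 among the mixed tumours. B91 and A394 were level, and otherwise the mixed tumours were higher. Against the reference it rose by 0.75 ± 0.32 (SD, n = 11, limma adjusted p = 1.6e-06). The strain difference was -0.50 ± 0.12 (SE, adjusted p = 0.245). Relative to each tumour's chromosome median it was -0.01 to 0.23 in C57BL/6J and 0.56 to 1.33 in mixed tumours, a difference of -0.75 with an adjusted p of 0.024. This was the only chromosome 6 gene called in this comparison, which was also chosen after seeing the data and where 0.1% of all genes were called lower and 0.0351% higher. One probe cannot separate copies of the gene from other sequences it may bind, and this was not tested.

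**Figure D4:**
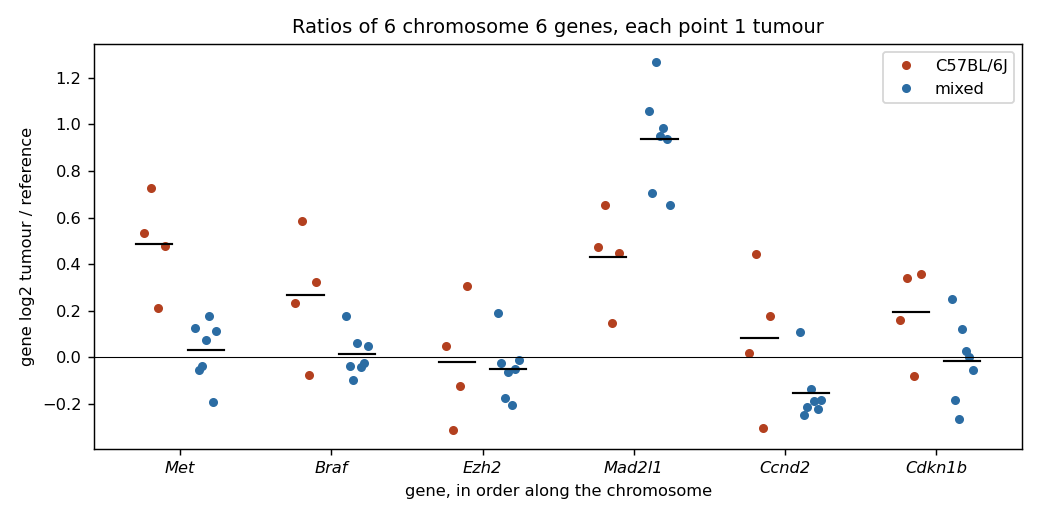
Log2 ratios of 6 genes are plotted in order along chromosome 6, each point a tumour, with C57BL/6J left of mixed for each gene and lines at the group means. Met is higher in all 4 C57BL/6J tumours, Mad2l1 is higher in mixed tumours, and the lowest C57BL/6J point of Ezh2 is B91 at -0.31.

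Among transcription and chromatin genes 5 of 25 rose and 2 fell, with a median of 0.04, where 36.9% rose and 3.00% fell on chromosome 6 and 18% and 15.5% did over all genes. Hoxa13, Tead4, Trim24 and Nanog were among those that rose, Hoxa13 by 0.34 ± 0.27 (SD, n = 11, limma adjusted p = 0.00084) and Tead4, a partner of the YAP coactivator, by 0.32 ± 0.24 (p = 0.00068). Hoxa2 and Dlx5, homeobox genes of hindbrain and skeletal patterning, fell, with means of -0.42 ± 0.37 (limma adjusted p = 0.0014) and -0.38 ± 0.27 (limma adjusted p = 0.00034; SD, n = 11 each). With a running median of 5 probes both were above 0, at 0.04 and 0.07, and each has 1 probe. Hoxa2 was 0.40 in B91 and -0.70 to -0.22 in the other C57BL/6J tumours, against -1.02 to -0.17 in the mixed tumours.

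Ezh2 had 0.05 in B86, -0.31 in B91, -0.12 in B96 and 0.30 in B76, against a lowest of -0.20, a median of -0.05 and a highest of 0.19 in the mixed tumours. B91, the tumour with the highest chromosome 6, was the lowest of the 11 for Ezh2 as the mean of its 2 probes, and B76 the highest. At the first of these probes A292, at -0.39, was below B91, at -0.37. In B91 Ezh2 lay 0.98 below the chromosome median, ranking 3 from the lowest of 1135 genes. The mean over all tumours was -0.04 ± 0.18 (SD, n = 11, limma adjusted p = 0.56).

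Of multigene families 38 of 64 rose and none fell, with a median of 0.24, and 45 of the 64 have 1 probe. Among the bitter taste receptors, Tas2r, 17 of 25 rose, each with 1 probe. C-type lectins, Clec, had 11 of 20 risen, and natural killer receptors, Klr without Klra, 7 of 10. On chromosome 6 as a whole 36.9% of genes rose, and 18% did over all genes. These genes have close copies that a 60-mer may also bind, so a value may not belong to 1 copy. Tas2r120 was 1.33, 1.86, 1.15 and 1.43 in B86, B91, B96 and B76, and 1.1 to 1.49 in 6 mixed tumours, but 0.027 in A202. Its mean of 1.19 ± 0.45 (SD, n = 11, limma adjusted p = 2.5e-07) was the highest of the 1135 genes. Klrc3 followed with 0.77 ± 0.26 (limma adjusted p = 1.8e-07), at 0.69 to 1.38 in C57BL/6J and 0.40 to 0.76 in mixed tumours, and Tas2r131 had 0.70 ± 0.21 (limma adjusted p = 8.8e-08). The 5 highest genes were Tas2r120, Klrc3, Mad2l1, AK010580 and AK029023, the last 2 with means of 0.72 and 0.71 and 1 probe each. The lowest, AK016531 and AK030541, had -0.60 and -0.50, followed by Hoxa2, Gapdh (-0.39, with no value in B86) and Dlx5. AK016531 and AK030541 were below 0 in B86, B96 and B76 and above 0 in B91.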

How the data were processed

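DNA copy number was measured on 12 two-channel Agilent arrays of 11 tumours. The deposited ratios are log10 of Cy5 over Cy3 after background subtraction, detrending and linear dye normalisation, per the file headers. Both channels were also deposited as intensity. Feature Extraction 9.5 by Agilent and the mm9 build stand in the submitters' processing notes.

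Ratios were turned into log2, spots marked as non-uniform or as population outliers were set to missing, spots of a probe were averaged, and arrays were centred on the autosomal median. The A382 arrays were averaged. A gene is the mean of its probes, a window the median of at least 10. limma 3.58.1 (R 4.3.3) tested all genes and windows, each with at least 3 values per background. Segments used a penalty of 40 noise variances, at least 5 probes and values limited to 3 noise SD around a running median of 5 probes. Both steps were tested on simulated data. The labels name tumours apart but give no replicate numbers, so p-values measure only the spread between these samples.

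The members, lists and named genes were chosen with earlier results of these data known. Named genes were 8 given ones, the 4 of each list with the largest mean in size, the 5 highest and 5 lowest called genes with 1 sign in at least 9 tumours, and those at breaks, stretches and segments; others, chosen after their values were seen, are Fancd2, Ing4, Trim24, Nanog and Lrp6. Some of the named genes are not reported here. Python 3.11.15 and numpy 2.4.6 were used. The closing section gives the alternatives.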

Additional observations from a re-analysis of the deposited data

Results flagged for a closer look

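Of 83 groups of tumours checked for one that stood apart, 7 had one. By chance the rule flags about 1 in 20 groups, if they are independent and unselected. These groups share tumours and each tumour's chromosome level, so they are not independent. On C57BL/6J, B91 stood apart in the Etv6 to Emp1 stretch, at -0.47 from its flanks, and in AK016531, at 0.30 against -0.89 to -0.71 in the other 3. That stretch was chosen as a low segment of B91 itself. Its flag was therefore favoured in advance and cannot be set against the chance rate. Among the mixed tumours A18, the raised one, stood apart upward in Ccnd2 (0.11), AK010580 (0.91), Tead4 (0.50) and Arhgdib (0.30). These flags share the raised chromosome 6 of A18 and are not separate events. A202 stood apart downward in Tas2r120 (0.027). AK016531, AK010580 and Tas2r120 were named from these same data, so their flags cannot be set against the chance rate either. Mad2l1 relative to the chromosome median differed between the backgrounds by -0.75 (C57BL/6J minus mixed, limma adjusted p = 0.024). The causes were not tested.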

How the results depend on the processing

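The mean chromosome 6 median stayed positive under every alternative run, and so did the strain difference. Leaving out 1 tumour moved the mean between 0.10 and 0.18, the strain difference between 0.13 and 0.35, risen genes between 296 and 490, fallen genes between 24 and 47, and risen windows between 1 (without B91) and 9, with 7 in all. It left 3 or 4 raised tumours, a most-shared gain of 3 or 4 tumours, and 7 (without B91) to 15 breaks. No gene or window on chromosome 6 was called between the backgrounds in those fits.

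Risen windows numbered 11 with normexp, 11 with equal weight for both backgrounds, 4 without slide 1, and, with the windows themselves changed in number, 18 with 2 Mb and 2 with 10 Mb windows. Relative to the chromosome median 1 gene, Mad2l1, was called between the backgrounds. Genes with at least 2 probes gave 211 risen and 11 fallen, since fewer were tested, and a running median of 5 probes gave 0 fallen. With it Dlx5 (0.065), Gapdh (0.035), Hoxa2 (0.042) and AK039686 (0.22) were above 0. With a gain at 0.3, and with each probe set against the other tumours, there were 2 raised tumours and a most-shared gain of 2. Without slide 1 the counts were the same, because its removal drops the raised tumours B86 and A18. Relative to each tumour's chromosome median 122 genes were above and 160 below. A gain at 0.1 gave 7 sharing tumours. Breaks numbered 39 at a penalty of 20 and 0 at a penalty of 80, so the B91 stretches are segments only at the lower penalties. With slide as a block the strain difference was 0.30, and 425 genes and 7 windows rose. No paired analysis was possible because the labels give no replicate numbers that pair tumours of both backgrounds. The number of arrays, 1 for nearly every tumour, limits the precision, and the reference's own spread is not in any test.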
